A study of Homo sapiens with 6 samples.

Results

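A set of 10 genes of the NF-kB pathway was followed across A549 libraries labelled with siRNAs against TIMM13: RELA, RELB, REL, NFKB1, NFKB2, NFKBIA, TNFAIP3, BIRC3, TNFAIP2 and ICAM1. They were chosen by name as NF-kB subunits, feedback regulators and target genes, with earlier results of these data known. All 10 are among the 19990 gene symbols of the table. A549 is a human lung adenocarcinoma cell line with an epithelial-like form, and the product of TIMM13 escorts membrane proteins that are imported into mitochondria. Poly(A)-selected RNA was measured by strand-specific sequencing in 6 libraries: 2 labelled TIMM13_siRNA1 (siRNA 1), 2 labelled TIMM13_siRNA2 (siRNA 2), both with the genotype TIMM13 knockdown, and 2 labelled with a non-targeting control siRNA and the genotype WT. The submitters state that the siRNAs were used to study how TIMM13 acts on proliferation, and all 6 samples, controls included, also carry the words cell differentiation in the treatment field. No time after transfection is labelled. Nor is the origin of the replicates, and since they may come from 1 culture, the p-values refer to the spread of these samples, which may be technical. The values are abundances per gene scaled by the authors, not read counts, so the depth of the libraries is unknown. In such bulk RNA, fewer cells with a transcript and less of it per cell cannot be told apart.

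NF-kB is a family of dimeric transcription factors built from RELA, RELB, REL and the products of NFKB1 and NFKB2. In resting cells the dimers are held in the cytoplasm by inhibitors such as the product of NFKBIA, and signals from cytokine receptors lead to the loss of the inhibitor and entry of the dimers into the nucleus. Several genes that NF-kB activates, NFKBIA and TNFAIP3 among them, encode proteins that shut the signal down again, so their mRNAs are often read as a record of pathway activity. In lung epithelial cells the pathway is best known for driving chemokines and adhesion molecules in inflammation.

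The promoters of TNFAIP3, BIRC3 and NFKBIA are shown because these feedback genes carry NF-kB consensus letters next to their starts and had different patterns across the libraries. Each line is the 250 bases before the start of the gene in RefSeq (GRCh38.p14), 5′ to 3′ on the strand of the gene, and capitals mark the letters that match the NF-kB consensus on either strand. The consensus searched is a decamer of GGG, a purine, any base, A or T, a pair of pyrimidines and CC.
TNFAIP3: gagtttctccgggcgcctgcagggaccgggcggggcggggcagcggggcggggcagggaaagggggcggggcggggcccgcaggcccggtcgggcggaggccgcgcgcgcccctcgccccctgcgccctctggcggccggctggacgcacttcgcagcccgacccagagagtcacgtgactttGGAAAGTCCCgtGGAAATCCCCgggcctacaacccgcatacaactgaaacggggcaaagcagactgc
BIRC3: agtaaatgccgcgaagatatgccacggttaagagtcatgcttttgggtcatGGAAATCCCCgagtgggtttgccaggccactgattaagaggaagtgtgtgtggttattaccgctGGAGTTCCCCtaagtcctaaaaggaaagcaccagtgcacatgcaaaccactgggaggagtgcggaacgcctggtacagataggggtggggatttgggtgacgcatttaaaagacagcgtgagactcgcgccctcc
NFKBIA: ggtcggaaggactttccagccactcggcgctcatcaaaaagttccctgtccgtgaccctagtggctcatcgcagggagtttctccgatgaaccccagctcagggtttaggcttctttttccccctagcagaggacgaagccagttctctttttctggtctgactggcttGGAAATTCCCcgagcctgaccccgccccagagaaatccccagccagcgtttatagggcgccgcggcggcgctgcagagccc
The TNFAIP3 window is chr6:137867009-137867258 on the plus strand, the BIRC3 window chr11:102317234-102317483 on the plus strand and the NFKBIA window chr14:35404750-35404999 on the minus strand. TNFAIP3 and BIRC3 share 1 decamer, GGGGATTTCC, read on the strand opposite the gene, with its first base on the strand of the gene at position −55 from the start of TNFAIP3 and −199 from that of BIRC3. That decamer was in 0.108% of 35116 promoter windows. Other members share decamers too, with GGGACTTTCC in windows of TNFAIP3 and NFKB2, and GGGAATTTCC in windows of REL, NFKB1 and NFKBIA. The share of windows was not computed for those decamers. Whether a shared decamer goes with the levels of these genes was not tested. A consensus match of any spelling, on either strand and with overlapping matches allowed, was in 5.21% of the windows and in at least 1 window of 6.28% of 27305 genes. Counted per gene, 6 of the 9 members with a window had a match (REL, NFKB1, NFKB2, TNFAIP3, BIRC3 and NFKBIA) and RELA, TNFAIP2 and ICAM1 had none in these letters. The GENCODE starts of TNFAIP3 and BIRC3 lie inside these windows. By that annotation the marked stretches of TNFAIP3 lie just inside the gene, and those of BIRC3 lie before its start. These matches describe letters in a window and are not measured binding sites.

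No lower level of TIMM13 could be detected under its own siRNAs: it stood at 2.09 and 1.83 with siRNA 1 and 1.82 and 2.31 with siRNA 2, against 2.09 and 2.56 in control (limma adjusted p = 0.653 for siRNA 1 and 0.666 for siRNA 2). The TIMM13 locus overlaps LMNB2 on the same strand and TMPRSS9 on the other. How reads in such overlaps were counted is not stated, so the TIMM13 value may hold reads of those genes or lack some of its own. Directions given below therefore refer to what the labels say and not to a measured loss of TIMM13. The epithelial line was recognisable in each library: all 11 epithelial and A549 markers were above 0, and their summed level was 5029 to 5078 with siRNA 1, 5017 to 10099 with siRNA 2 and 4813 to 5016 in control. Of 20 markers of other cell types, 7 to 10 were listed at 0 in each library and 2 or 3 reached 1. The leukocyte markers CD3E and MS4A1 were listed at 0 in all 6 libraries. ITGAM and NKG7, also leukocyte markers, were above 0 in all 6, at 0.107 to 0.389 and 0.0602 to 0.547. The monocyte marker CD14 stood higher, at 1.80 and 2.29 with siRNA 1, at 6.99 and 6.44 with siRNA 2, and at 4.09 and 4.47 in control. The summed level of the 20 markers was 19.6 to 20.5 with siRNA 1, 11.3 to 14.6 with siRNA 2 and 7.54 to 8.39 in control. Of that sum, ACTA2 made up 13.9 and 14.3 in the siRNA 1 libraries. The part of these markers in the results below was not tested. Replicate 2 of siRNA 2 differed most from the rest. Its column total was 299936, against 205986 to 219820 in the other 5 libraries. Its correlation across the log2 values of all tested genes, a description since genes are not independent, was 0.805 with its own replicate and between 0.745 and 0.772 with the other 4 libraries. Replicates were over 2-fold apart in deposited value for 9.19% of 11486 tested genes with siRNA 1, 24.7% with siRNA 2 and 9.63% in control.

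**Figure D1:**
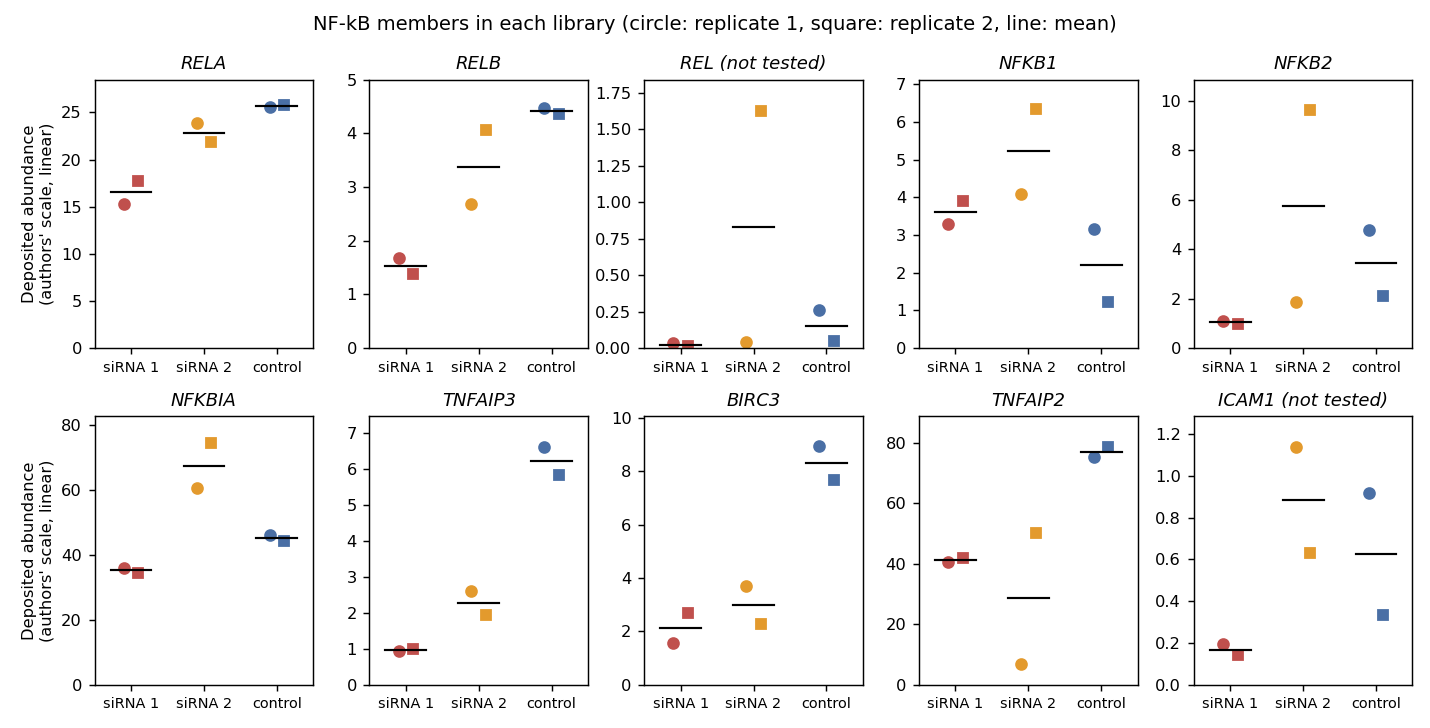
Deposited abundance (authors' scale, linear axis from 0) of each of the 10 members in the libraries labelled siRNA 1, siRNA 2 and control, with replicate 1 as a circle, replicate 2 as a square and the group mean as a line. TNFAIP3 and BIRC3 lie below both control libraries in all 4 siRNA libraries, NFKBIA lies below control with siRNA 1 and above it with siRNA 2, and REL, NFKB2 and TNFAIP2 are far apart between the siRNA 2 replicates.

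Among the subunits, RELA and RELB had lower values in the siRNA 1 libraries, without passing the test, while NFKB1 stood above control. RELA encodes the main transactivating subunit of the canonical pathway. It stood at 15.3 and 17.7 with siRNA 1, at 23.9 and 21.8 with siRNA 2, and at 25.6 and 25.8 in control, or 16.5 ± 1.73, 22.9 ± 1.47 and 25.7 ± 0.147 (SD, n = 2 each). All 4 siRNA libraries lay below both control libraries, those of siRNA 1 furthest. On the log2(value + 1) scale used throughout, the log2 fold change was −0.61 with siRNA 1 (SE 0.166, 95% interval −1.05 to −0.18, limma adjusted p = 0.140) and −0.17 with siRNA 2 (95% interval −0.60 to 0.27, adjusted p = 0.543). With equal column totals the siRNA 2 value was −0.40 (limma adjusted p = 0.490).

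RELB, the subunit that pairs with the NFKB2 product in the non-canonical pathway, stood at 1.68 and 1.38 with siRNA 1, at 2.68 and 4.06 with siRNA 2, and at 4.48 and 4.36 in control. The siRNA 1 libraries were the lowest, and siRNA 2 replicate 2 was close to control. RELB had a log2 fold change of −1.10 with siRNA 1 (SE 0.212, limma adjusted p = 0.0858) and −0.33 with siRNA 2 (SE 0.212, adjusted p = 0.374).

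NFKB1 encodes the precursor of the partner of RELA. It stood at 3.30 and 3.90 with siRNA 1, at 4.10 and 6.34 with siRNA 2, and at 3.17 and 1.23 in control. The siRNA libraries all lay above the control libraries, but the control libraries were 2.58-fold apart from each other and siRNA 1 replicate 1 was close to the higher of them. NFKB1 had log2 fold changes of 0.59 with siRNA 1 and 1.00 with siRNA 2 (SE 0.377 each, limma adjusted p = 0.464 and 0.193).

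NFKB2, the precursor of the non-canonical partner of RELB, stood at 1.10 and 0.986 with siRNA 1, at 1.88 and 9.61 with siRNA 2, and at 4.77 and 2.11 in control. The siRNA 2 replicates lay on opposite sides of the control libraries and were 5.11-fold apart. NFKB2 had a log2 fold change of −1.05 with siRNA 1 (limma adjusted p = 0.492) and 0.38 with siRNA 2 (adjusted p = 0.746). The siRNA 2 value was −0.56 without siRNA 2 replicate 2 and 1.32 without siRNA 2 replicate 1. REL, the subunit best known from lymphoid cells, was near the bottom of the scale, at 0.0342 and 0.0125 with siRNA 1, at 0.0422 and 1.62 with siRNA 2, and at 0.260 and 0.0485 in control. Its only value above 1 was in the library that stood apart, and it did not pass the filter of at least 1 in at least 2 libraries.

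Among the feedback regulators, TNFAIP3 fell with siRNA 1, and BIRC3 had similar values without passing the test. TNFAIP3 encodes a ubiquitin-editing enzyme that removes signalling chains from the adaptors upstream of NF-kB. It stood at 0.943 and 0.997 in the libraries labelled siRNA 1, at 2.62 and 1.95 in those labelled siRNA 2, and at 6.62 and 5.84 in control, or 0.970 ± 0.0379, 2.28 ± 0.475 and 6.23 ± 0.556 (SD, n = 2 each). The 3 groups did not overlap, with siRNA 1 lowest and siRNA 2 between it and control. Against control, TNFAIP3 had a log2 fold change of −1.87 with siRNA 1 (SE 0.174, 95% interval −2.33 to −1.42, limma adjusted p = 0.0392) and −1.15 with siRNA 2 (SE 0.174, 95% interval −1.60 to −0.69, adjusted p = 0.0514). The mean of both siRNAs against control was −1.51 (SE 0.151, limma adjusted p = 0.0425). The siRNA 1 call was lost when either control library or either siRNA 1 library was left out (limma adjusted p = 0.170 without control replicate 1, 0.166 without control replicate 2, 0.211 without siRNA 1 replicate 1 and 0.196 without siRNA 1 replicate 2, with log2 fold changes of −1.95 to −1.80). In those fits 0 of 11486 genes passed, so the loss says nothing particular to TNFAIP3. It was also lost with a minimum value of 5 (adjusted p = 0.0529), equal totals (0.0944) and equal upper quartiles (0.0701). The mean of both siRNAs lost its call when any of the same 4 libraries was left out (limma adjusted p of at least 0.177). The siRNA 2 difference was −1.29 without siRNA 2 replicate 1 and −0.997 without siRNA 2 replicate 2. It passed the threshold in these fits, but the siRNA 2 arm is then 1 library that is assumed to vary like the other groups, and 40.6% and 15.3% of all genes passed as well.

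BIRC3, a ubiquitin ligase of the TNF receptor complex and an inhibitor of apoptosis, stood at 1.58 and 2.67 with siRNA 1, at 3.69 and 2.29 with siRNA 2, and at 8.94 and 7.67 in control. Its siRNA groups overlapped each other, and the highest siRNA library stood below the lowest control library. BIRC3 had log2 fold changes of −1.59 with siRNA 1 and −1.24 with siRNA 2 (SE 0.286 each, limma adjusted p = 0.0798 and 0.0908). Between the siRNAs the difference was −0.35 (95% interval −1.11 to 0.40, limma adjusted p = 0.476).

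NFKBIA, which encodes the inhibitor that holds RELA dimers in the cytoplasm, had another order of groups than TNFAIP3. It stood at 36.1 and 34.5 with siRNA 1, at 60.5 and 74.5 with siRNA 2, and at 46.3 and 44.3 in control. The siRNA 1 libraries lay below control and the siRNA 2 libraries above it, with no overlap among the 3 groups. NFKBIA had log2 fold changes of −0.35 with siRNA 1 and 0.56 with siRNA 2 (SE 0.177 each, limma adjusted p = 0.358 and 0.147), and the difference between the siRNAs was −0.91 (SE 0.177, limma adjusted p = 0.0703). With equal column totals the siRNA 2 value was 0.32 (limma adjusted p = 0.496). The difference between the siRNAs was −1.06 without siRNA 2 replicate 1 and −0.76 without siRNA 2 replicate 2. It passed in these fits of a lone siRNA 2 library, as did 39.9% and 14.3% of all genes.

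Of the target genes, TNFAIP2, a TNF-induced protein linked to membrane nanotubes, stood at 40.7 and 41.8 with siRNA 1, at 6.96 and 50.2 with siRNA 2, and at 75.4 and 78.5 in control. All 4 siRNA libraries lay below control, but the siRNA 2 replicates were 7.21-fold apart. TNFAIP2 had log2 fold changes of −0.88 with siRNA 1 and −1.95 with siRNA 2 (SE 0.912 each, limma adjusted p = 0.659 and 0.264). The 3 groups share 1 estimate of the spread, so the gap between the siRNA 2 replicates enters the siRNA 1 test too. The replicates were 1.03-fold apart with siRNA 1 and 1.04-fold in control. With siRNA 2 the log2 fold change was −3.29 without replicate 2 and −0.61 without replicate 1. Both passed with the spread taken from the other groups, where 15.3% and 40.6% of all genes passed, so these fits say little about TNFAIP2. ICAM1, the leukocyte adhesion molecule that inflamed epithelium displays, stood at 0.195 and 0.141 with siRNA 1, at 1.14 and 0.633 with siRNA 2, and at 0.918 and 0.333 in control. Its siRNA 1 libraries were the lowest, its siRNA 2 libraries overlapped control, and it did not pass the filter.

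**Figure D2:**
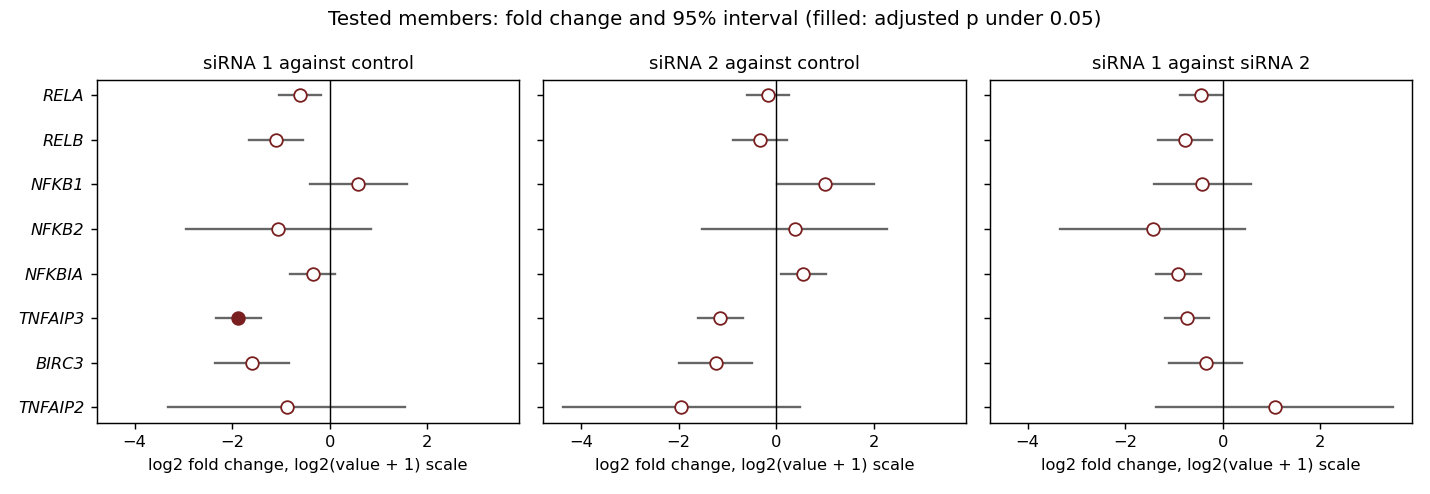
Log2 fold change (dot, log2(value + 1) scale) and 95% interval (line) of the 8 tested members for siRNA 1 against control, siRNA 2 against control and siRNA 1 against siRNA 2, with filled dots for a limma adjusted p under 0.05. The filled dot is TNFAIP3 with siRNA 1, at −1.87, and the widest intervals are those of TNFAIP2 and NFKB2.

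Counted together, 8 of the 10 members passed the filter, and 1 of them, TNFAIP3, was called with siRNA 1, where limma called 1.63% of 11486 genes (0.705% higher and 0.923% lower). At an unadjusted p under 0.05 there were 4 members with siRNA 1 (TNFAIP3, BIRC3, RELB and RELA), against 20.5% of genes. With siRNA 2 limma called 0 members (4 at an unadjusted p under 0.05: NFKB1, NFKBIA, TNFAIP3 and BIRC3), where 3% of genes were called (1.24% higher and 1.76% lower) and 25.7% had an unadjusted p under 0.05. The mean of both siRNAs against control gave 1 member, TNFAIP3, where 1.19% of genes were called (0.723% higher and 0.47% lower) and 23.1% had an unadjusted p under 0.05. Between siRNA 1 and siRNA 2 limma called 0 members (4 at an unadjusted p under 0.05: RELA, RELB, NFKBIA and TNFAIP3), where 3.27% of genes were called (1.91% higher and 1.37% lower) and 24.3% had an unadjusted p under 0.05. The comparisons with control share the same 2 control libraries.

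Of the 8 tested members, 7 were lower with siRNA 1 than control without overlap and 1, NFKB1, was higher. The untested REL and ICAM1 were also lower without overlap, but at values under 1 in all these libraries, so their order says little. Of all tested genes, 67.8% did not overlap, 31.1% lower and 36.8% higher. With siRNA 2, 5 of the 8 tested were lower without overlap (TNFAIP3, RELA, RELB, BIRC3 and TNFAIP2) and 2 higher (NFKBIA and NFKB1), against 59.6% of all tested genes, 25.9% lower and 33.7% higher. All 4 siRNA libraries lay below both control libraries for the same 5 members and above them for NFKB1, against 33% of all tested genes, 14.7% lower and 18.3% higher. Against siRNA 2, the siRNA 1 libraries were lower without overlap for 6 of 8 tested members and higher for 0, against 57.2% of all tested genes, 30.8% lower and 26.4% higher. BIRC3 and TNFAIP2 overlapped. The median log2 fold change of the 8 tested members was −0.97 with siRNA 1 and −0.25 with siRNA 2, beside 0.05 and 0.14 for all tested genes. When only the siRNA 1 and control libraries were fitted, limma called 6 members lower (TNFAIP3, BIRC3, RELB, RELA, NFKBIA and TNFAIP2) with the same fold changes. In that fit it called 20.8% of all 11486 genes in either direction, 1260 higher and 1126 lower. That fit leaves out the siRNA 2 libraries, whose spread enters the fit of all 3 groups. As the members were chosen with earlier results of these data known, these counts and medians only describe them.

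**Figure D3:**
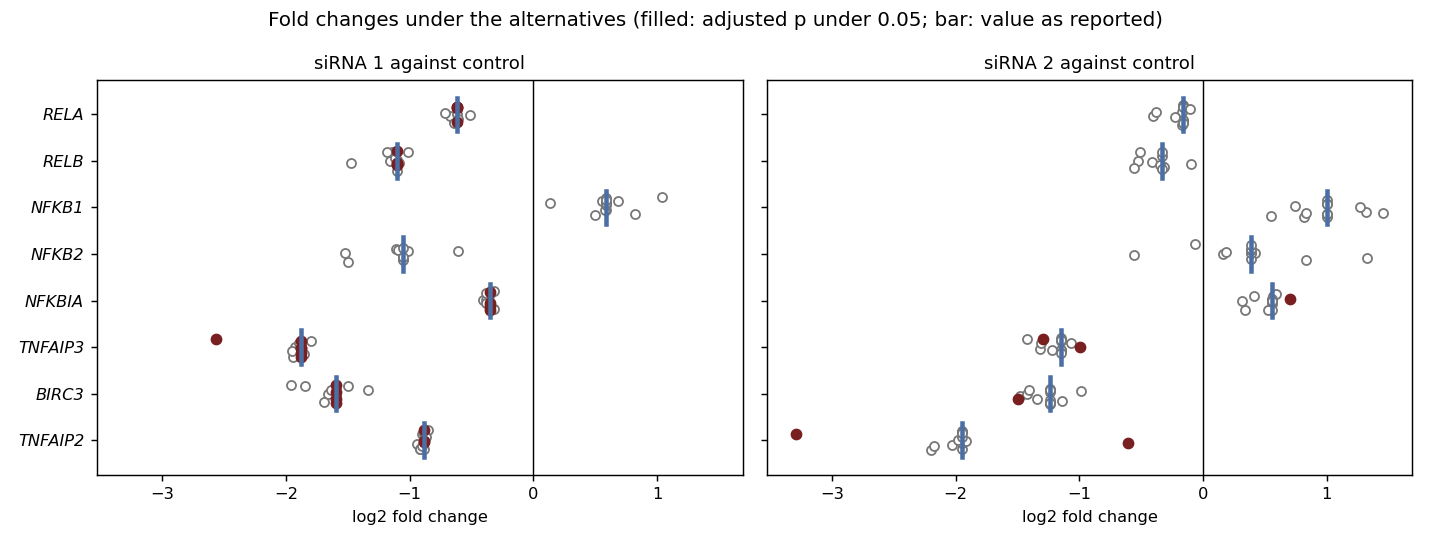
Log2 fold change of the 8 tested members with siRNA 1 and with siRNA 2 against control under each alternative setting (dots, filled where the limma adjusted p is under 0.05), with the reported value as a bar. The siRNA 1 values of TNFAIP3 lie between −2.56, with 0.1 added before the log, and −1.80, while the siRNA 2 values of TNFAIP2 run from −3.29 to −0.61 and those of NFKB2 from −0.56 to 1.32.

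The members lie on chromosomes 2, 4, 6, 10, 11, 14 and 19 (GENCODE annotation, GRCh38) and have 3 to 27 annotated transcripts, with 11 for TNFAIP3 (chr6:137867188-137883312, plus strand), 7 for BIRC3 and 27 for RELA. A single value per symbol does not separate a change of transcript from one of level. REL is the member with other annotated genes on its own strand (AC010733.2 and RNU4-51P). TNFAIP3 and RELA each overlap 1 antisense gene and ICAM1 overlaps 2. The library kit keeps the strand, but the strand setting of the counting is not stated, so antisense reads may be part of those 3 values.

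The lists of other pathway genes were also chosen with earlier results of these data known. They are read against the shares of all tested genes: 1.63% called with siRNA 1 and 3% with siRNA 2. At an unadjusted p under 0.05 the shares were 20.5% and 25.7%. Of 16 tested genes of 18 inhibitors and signal terminators limma called 0 in the 4 comparisons (3 with siRNA 1 and 5 with siRNA 2 at an unadjusted p under 0.05), counts near those shares, and the median log2 fold change was 0.01 with siRNA 1 and 0.06 with siRNA 2. NFKBIB, a second cytoplasmic inhibitor of RELA dimers, stood at 15.1 and 14.7 with siRNA 1, at 17.1 and 18.1 with siRNA 2, and at 8.80 and 7.39 in control (limma adjusted p = 0.0964 and 0.0562). Its siRNA libraries were all above control, unlike those of NFKBIA. BCL3, a nuclear member of the inhibitor family, stood at 28.4 and 31.9, at 33.7 and 43.1, and at 19.5 and 19.7 in the same order (limma adjusted p = 0.189 and 0.0770).

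Of the 24 kinases and ubiquitin adaptors, all tested, limma called 0 in the 4 comparisons (5 with siRNA 1 and 7 with siRNA 2 at an unadjusted p under 0.05), also near the shares of all genes, with medians of −0.08 with siRNA 1 and 0.15 with siRNA 2. MAP3K14, the kinase that starts the non-canonical pathway, stood at 5.69 and 4.87 with siRNA 1, at 5.79 and 4.80 with siRNA 2, and at 8.11 and 8.09 in control (limma adjusted p = 0.206 and 0.165). TRAF3, the adaptor that marks that kinase for degradation, stood at 6.19 and 5.32 with siRNA 1, at 6.34 and 4.47 with siRNA 2, and at 2.93 and 2.69 in control (limma adjusted p = 0.135 and 0.131). For both genes all 4 siRNA libraries lay on one side of the control libraries.

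Of the 22 tested of 28 receptors and receptor adaptors, IL1R1, the signalling receptor for interleukin-1, was called higher with siRNA 2, and limma called 0 with siRNA 1 (6 at an unadjusted p under 0.05). These counts, too, are near the 3% of all genes called with siRNA 2 and the 20.5% at an unadjusted p under 0.05 with siRNA 1. IL1R1 stood at 11.9 and 11.7 with siRNA 1, at 9.81 and 24.2 with siRNA 2, and at 1.07 and 0.952 in control (log2 fold change 2.67 with siRNA 1, limma adjusted p = 0.0722, and 3.04 with siRNA 2, adjusted p = 0.0485). All 4 siRNA libraries were far above both control libraries. IL1RAP, the co-receptor of IL1R1, stood at 1.67 and 1.59 with siRNA 1, at 6.11 and 5.04 with siRNA 2, and at 4.53 and 3.78 in control, and was lower with siRNA 1 than with siRNA 2 (log2 difference −1.32, SE 0.177, limma adjusted p = 0.0434). IRAK2, a kinase-like adaptor below these receptors, stood at 3.36 and 3.30 with siRNA 1, at 4.64 and 3.71 with siRNA 2, and at 8.53 and 8.87 in control (limma adjusted p = 0.0646 and 0.0701). TNFRSF21, a death receptor, stood at 7.93 and 6.33, at 11.8 and 9.14, and at 21.0 and 20.3 in the same order (limma adjusted p = 0.0621 and 0.0880).

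Of 27 tested genes among 44 other NF-kB targets, limma called 4 lower and 0 higher with siRNA 1 (CCL2, CCL20, PLAU and GADD45B) and 2 lower and 0 higher with siRNA 2 (CCL20 and LIF). Of all tested genes, limma called 0.923% lower and 0.705% higher with siRNA 1, and 1.76% lower and 1.24% higher with siRNA 2. The counts of targets called lower include CCL20, whose calls are not used, for the reason given with its values. At a limma unadjusted p under 0.05 there were 13 with siRNA 1, 12 lower and 1 higher, against 20.5% of all tested genes. With siRNA 2 there were 11, 7 lower and 4 higher, against 25.7%. These counts include CCL20 and CD83, whose tests are not used, for the reasons given with their values. The median log2 fold change was −0.45 with siRNA 1 and 0.08 with siRNA 2, beside 0.05 and 0.14 for all tested genes. GADD45B, a stress-induced regulator of growth arrest and survival, stood at 18.4 and 15.1 with siRNA 1, at 23.0 and 24.0 with siRNA 2, and at 51.5 and 51.6 in control (limma adjusted p = 0.0422 and 0.0517). Like TNFAIP3, it was below control in all 4 siRNA libraries, with siRNA 1 lowest. PLAU, the urokinase-type plasminogen activator, stood at 13.0 and 12.9 with siRNA 1, at 66.3 and 64.7 with siRNA 2, and at 48.3 and 49.6 in control (limma adjusted p = 0.0359 and 0.171). The siRNA 1 libraries were below control and the siRNA 2 libraries above it, as for NFKBIA. The chemokine CCL2 had the same order, at 1.65 and 1.31 with siRNA 1, at 10.7 and 13.4 with siRNA 2, and at 7.47 and 7.02 in control (limma adjusted p = 0.0425 and 0.134). The chemokine CCL20 stood at 0.638 and 0.775 with siRNA 1, at 0.652 and 1.14 with siRNA 2, and at 4.81 and 4.34 in control. It passed the filter only through the control libraries, where it was high, so its calls (limma adjusted p = 0.0422 and 0.0389) are not used. LIF, a cytokine of the interleukin-6 family, stood at 34.8 and 30.5 with siRNA 1, at 23.1 and 14.8 with siRNA 2, and at 68.6 and 65.0 in control (limma adjusted p = 0.127 and 0.0467). When any 1 of the control or siRNA 1 libraries was left out, limma called 0 of 11486 genes in each of the 4 comparisons, so no call could be kept there, whatever the gene.

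**Figure D4:**
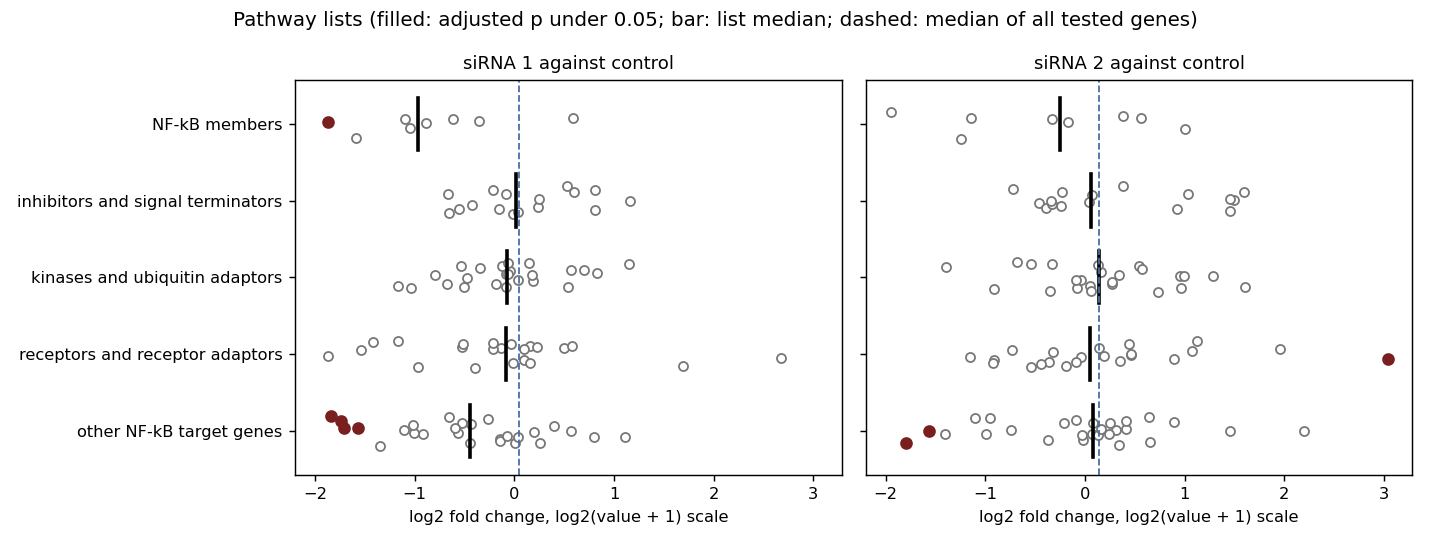
Log2 fold change (log2(value + 1) scale) of each tested gene of the NF-kB members and of 4 pathway lists with siRNA 1 and with siRNA 2 against control, filled where the limma adjusted p is under 0.05. Bars are list medians and the dashed line is the median of all tested genes; with siRNA 1 the members and the other targets have medians of −0.97 and −0.45, and the median of all tested genes is 0.05.

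Genes whose log2 profile over the 6 libraries was most like that of TNFAIP3 were looked for among 7302 candidates averaging 5 or more. They included CHIC1, CPT1A, POLR3K and DEDD, with Pearson correlations of 0.991 to 0.995. These correlations over 6 libraries describe the order of the groups only, since the libraries fall into 3 groups. CHIC1 stood at 1.95 and 2.16 with siRNA 1, at 4.68 and 3.13 with siRNA 2, and at 9.27 and 9.50 in control. CPT1A, the enzyme that admits long-chain fatty acids to mitochondria, stood at 14.8 and 15.3 with siRNA 1, at 18.2 and 17.0 with siRNA 2, and at 24.8 and 22.3 in control. Against control, limma called CHIC1 with siRNA 1 (adjusted p = 0.0434) but CPT1A with neither siRNA (adjusted p = 0.134 and 0.209). As these genes were picked for the order of their groups, that order is not a separate result.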

How the data were processed

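The authors deposited 1 table of signal per gene symbol (19990 symbols, 6 libraries), probably scaled to the depth of each library and to transcript length. The sources used here do not name the unit. The column totals, 205986 to 299936, are unequal, so the values are not TPM scaled over these genes. Per the submitters' processing notes, Trim Galore, STAR and featureCounts and the build hg38 were used, without versions or roles. Depth is unknown, so no counting interval is given.

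Groups and replicate numbers were taken from the sample titles; the control columns are headed NC. A gene was tested if its value reached 1 in 2 or more libraries (11486 genes). Values were used as log2(value + 1) and fitted with limma 3.58.1 in R 4.3.3 (1 term per group, 6 libraries, 3 residual degrees of freedom, eBayes with trend and robust options), with Benjamini-Hochberg adjustment over all 11486 genes and a threshold of 0.05. Fold changes on this scale understate changes of low values. The script was tested on simulated data. The members and gene lists were chosen with earlier results of these data known. Named genes are the 10 members, TIMM13, the called genes of each list and its 4 genes of lowest p when both siRNAs are averaged, and the 5 genes most like TNFAIP3, of which 1 is not reported here; not all are described. ACTA2, CD14, CD3E, MS4A1, ITGAM, NKG7, AKR1B10, CLDN4 and ALDH1A1 are markers of the fixed cell type lists, and were singled out after their values were seen. Sequences are from RefSeq (GRCh38.p14), which had promoter windows for 9 of 10 members.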

Additional observations from a re-analysis of the deposited data

Results flagged for a closer look

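The effects of siRNA 1 and siRNA 2 went to opposite sides of control for NFKBIA: the log2 difference between the siRNAs was −0.91 (SE 0.177), which did not pass the test (limma adjusted p = 0.0703). Among the other genes of the pathway lists, the difference between the siRNAs passed it, with siRNA 1 lower and siRNA 2 higher than control in both libraries of each, for IL1RAP (log2 difference −1.32, limma adjusted p = 0.0434), for CCL2 (−2.39, adjusted p = 0.0284) and for PLAU (−2.25, adjusted p = 0.0191). CD83, a surface glycoprotein of activated immune cells, had the same order of groups and a log2 difference of −0.76. It stood at 0.291 and 0.238 with siRNA 1, at 1.26 and 1.02 with siRNA 2, and at 0.731 and 0.716 in control. It therefore passed the filter on low values only through the siRNA 2 libraries, where it was high, and its test is not used. Of all tested genes, 3.27% were called between the siRNAs and 57.2% did not overlap between them. The share with the siRNAs on opposite sides of control was not computed, so how common this order is cannot be said.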

How the results depend on the processing

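Of the member fold changes recomputed under up to 14 alternatives in 4 comparisons, 365 kept their direction and side of the threshold, 39 passed it and 17 no longer did. The 7 that changed sign were all of values not called. NFKB2 with siRNA 2 ran from −0.56 to 1.32 with 1 library left out (−0.06 without control replicate 2 and −0.56 without siRNA 2 replicate 2), and for the mean of both siRNAs from −0.80 to 0.14 (0.11 without control replicate 1 and 0.14 without siRNA 2 replicate 1). NFKBIA for the mean of both siRNAs was −0.046 with equal totals and −0.022 with equal upper quartiles, and TNFAIP2 between the siRNAs ran from −0.28 (without siRNA 2 replicate 1) to 2.41 (without siRNA 2 replicate 2).

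With siRNA 1 against control, 1 member was called as reported, 0 with a minimum value of 5, equal totals, equal upper quartiles or the replicate block, 6 when only the groups compared were fitted (20.8% of all genes), 5 with library weights (26.1%), and 0 to 6 when 1 library was left out (0 to 20.7%). For the mean of both siRNAs against control, 0 members were called without the filter, with a minimum value of 5, equal totals, equal upper quartiles or the replicate block, and 0 to 5 with 1 library left out (0 to 35.4% of all genes); a fit of only the groups compared is the reported fit itself. With siRNA 2 against control, 0 to 4 members were called with 1 library left out (0 to 40.6% of all genes), and between the siRNAs 0 to 4 (0 to 39.9%). Counts above the reported ones came with the siRNA 1 and control groups fitted alone, with library weights, and without siRNA 2 replicate 1 or 2. Without a siRNA 2 replicate, the lone siRNA 2 library is assumed to vary like the other groups. Where 0 members were called with siRNA 1, limma called 1.98% of all genes with a minimum of 5, 0.226% with equal totals and 0.27% with equal upper quartiles. For the mean of both siRNAs it called 0.254% without the filter and 2.07% with a minimum of 5. With equal totals and with equal upper quartiles it called 0.313%. At such shares, 0 members called says little about the members. The minimum of 5 left 5 members to test. The cause of the other changes was not tested.

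The replicate block called 0 members and 0 genes in each comparison. The numbers share no stated origin, and the differences between replicates 1 and 2 correlated across genes at 0.0014 between siRNA 1 and control, −0.0033 between siRNA 2 and control and 0.046 between siRNA 1 and siRNA 2. Equal totals moved the median log2 fold change of all genes by −0.05 with siRNA 1 and −0.20 with siRNA 2. The list genes called were recomputed under the same alternatives after the data were seen, and none changed direction. Whether each of these genes kept its call is not given here. With equal totals limma called 0.226% of all genes with siRNA 1 and 0.165% with siRNA 2, against 1.63% and 3% as reported. Unknown depth limits what can be said of REL and ICAM1, which limma called in none of the 4 comparisons without the filter.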
